A study of Homo sapiens with 2 samples.

Results

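Imprinted genes are expressed from only the maternal or only the paternal copy, according to DNA methylation set in the germ line at imprinting control regions. Many of these control regions are CpG-rich promoters of long non-coding RNAs or of paternally expressed genes. Methylation on the silent copy is kept after fertilisation by zinc finger proteins such as ZFP57, their partner TRIM28 and the DNA methyltransferase DNMT1, while factors such as CTCF bind the unmethylated copy. The genes described here are 33 such genes, and accessible regions were taken from 5 kb before to 5 kb after their annotated bounds. These windows cover 2.37 Mb and held 348 of the 359137 accessible regions found in the series.

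Open chromatin was mapped by ATAC-seq, an assay that uses Tn5 transposase to insert adapters into accessible DNA, in the human osteosarcoma cell line U2OS. The first library is from cells infected with a control hairpin (sh-ctrl). The second is from cells infected with the hairpin sh-VNGD, VNGD being the long non-coding RNA Vanguard. Each group had 1 library, so no difference below has a replicate check. The hairpin sequences, the time after infection, the level of Vanguard and whether the cells are 1 clone are not given in the sources used here. All values are summit pileups, the number of tags that cover the highest point of a peak, as the authors' peak caller gave them. The lists do not separate the parental copies, so a peak may lie on 1 copy or on both, and DNA methylation, RNA and copy number were not analysed here.

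Before duplicate tags were removed, sh-ctrl had 51628228 tags and sh-VNGD had 48164322. After duplicate tags were removed, sh-ctrl held 22931980 tags and sh-VNGD held 1.37 times as many, 31326715. The libraries thus differed in duplication, with more tags lost in sh-ctrl, and its effect on pileups was not tested. Ratios below are log2 values of sh-VNGD over sh-ctrl pileup scaled to kept tags and set relative to the median of all features of the same kind. At gene starts that median is -0.45, which is a raw pileup ratio of 1, so relative values at starts compare the raw pileups. Over all regions the median is -0.26, or 1.14 sh-VNGD tags per sh-ctrl tag. Unless stated, ratios given for a start are relative to all gene starts and those for other regions are relative to all regions. Values on these 2 scales are not directly comparable in size. Intervals are exact Clopper-Pearson 95% intervals of a ratio of counts and cover counting error only. A value is called lower or higher only where its interval lies wholly on 1 side of the median. As a check of the label, 6 of 9 mesenchymal markers had a peak in both libraries within 1 kb of a start or outer gene end, as had 4 of 5 epithelial, 3 of 5 haematopoietic, 2 of 4 neuronal and 0 of 4 placental or germ line markers. VIM and SPARC, both mesenchymal genes, had no such peak in either library. Start peaks in these lists therefore did not separate mesenchymal from other markers, and a missing peak does not show that a start was closed.

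To show what lies under, or beside, the peaks, the 250 bases before 6 starts are printed 5′ to 3′ on the strand of the gene, from RefSeq on GRCh38.p14. The starts of PLAGL1 and GRB10 that lie in their control regions had peaks in both libraries, as had the inner start of L3MBTL1 and the start of DIO3, while those of SNURF and MEG3 had none. Capitals mark TGCCGC on either strand, the letters ZFP57 binds when methylated, and in L3MBTL1 a repeated 12-base unit chosen after the sequence was seen.
PLAGL1, chr6:144008260-144008509, minus strand: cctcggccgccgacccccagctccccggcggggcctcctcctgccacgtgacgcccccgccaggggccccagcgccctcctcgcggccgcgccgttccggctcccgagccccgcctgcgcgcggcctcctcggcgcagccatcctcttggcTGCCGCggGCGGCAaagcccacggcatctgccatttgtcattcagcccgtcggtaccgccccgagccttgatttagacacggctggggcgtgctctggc
GRB10, chr7:50782897-50783146, minus strand: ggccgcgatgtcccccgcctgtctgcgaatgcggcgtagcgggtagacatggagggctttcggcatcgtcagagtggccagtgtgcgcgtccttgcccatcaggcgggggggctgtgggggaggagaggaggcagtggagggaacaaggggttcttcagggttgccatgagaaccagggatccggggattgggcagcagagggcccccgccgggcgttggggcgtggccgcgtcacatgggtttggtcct
L3MBTL1, chr20:43514191-43514440, plus strand: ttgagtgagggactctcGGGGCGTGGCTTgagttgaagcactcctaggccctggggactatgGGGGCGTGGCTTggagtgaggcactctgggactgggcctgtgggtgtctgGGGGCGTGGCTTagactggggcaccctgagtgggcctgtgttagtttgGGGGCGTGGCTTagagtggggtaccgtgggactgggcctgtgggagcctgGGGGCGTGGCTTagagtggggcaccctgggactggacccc
DIO3, chr14:101561245-101561494, plus strand: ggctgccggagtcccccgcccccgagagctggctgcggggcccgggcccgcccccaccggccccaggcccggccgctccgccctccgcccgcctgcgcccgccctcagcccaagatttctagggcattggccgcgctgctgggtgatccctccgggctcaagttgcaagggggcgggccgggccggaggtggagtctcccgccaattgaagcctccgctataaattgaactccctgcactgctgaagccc
SNURF, chr15:24954737-24954986, plus strand: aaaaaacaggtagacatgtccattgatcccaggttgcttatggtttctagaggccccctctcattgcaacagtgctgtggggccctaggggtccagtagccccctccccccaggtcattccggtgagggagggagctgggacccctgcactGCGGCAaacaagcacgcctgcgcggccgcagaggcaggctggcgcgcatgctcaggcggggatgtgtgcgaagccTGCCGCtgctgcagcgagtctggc
MEG3, chr14:100825858-100826107, plus strand: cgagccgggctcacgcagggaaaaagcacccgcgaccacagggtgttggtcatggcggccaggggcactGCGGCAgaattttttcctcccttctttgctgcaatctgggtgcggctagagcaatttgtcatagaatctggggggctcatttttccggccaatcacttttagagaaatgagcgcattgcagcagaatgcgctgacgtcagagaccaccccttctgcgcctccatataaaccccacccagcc

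In these stretches the PLAGL1 sequence holds 32 CpGs and 2 matches, the SNURF sequence 12 CpGs and 2 matches, and the MEG3 sequence 13 CpGs and 1 match. GRB10, with 19 CpGs, and DIO3, with 22, hold no match. The L3MBTL1 stretch has 7 CpGs and carries the unit GGGGCGTGGCTT 5 times. This unit occurs at least once in 25 of 34942 RefSeq promoter windows, or 0.0715%, and 4 or more times in 1. That 1 window is the L3MBTL1 window from which the unit was chosen.

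As a group, the imprinted genes had peaks around them about as often as other genes. With outer gene ends standing in where no start was listed, the protein-coding ones had start peaks less often than protein-coding genes as a whole. That difference was not tested. It was not seen among all members with a listed start. Within 5 kb of the gene, both libraries had a peak at 27 of the 33, sh-ctrl alone at 2 (H19 and DLK1), sh-VNGD alone at 1 (MKRN3) and neither at 3 (CDKN1C, MAGEL2 and NAP1L5). Among 38340 protein-coding and long non-coding genes the shares were 86.7%, 1.69%, 5.64% and 5.98%. Within 1 kb of a start, or of an outer gene end where no start was listed, both libraries had a peak at 16 genes, sh-ctrl alone at 1, sh-VNGD alone at 3 and neither at 13, against 52.8%, 3.03%, 5.91% and 38.3% of all genes. Most members are protein-coding, and of those 29, 15 had a start peak in both libraries and 10 in neither, beside 68.8% and 25.1% of 20037 protein-coding genes. These counts include members for which outer gene ends stood in for starts. Of the 21 members with a listed start, 13 had a start peak in both libraries and 8 in neither. The 13 are all protein-coding, and the 8 include the non-coding H19 and MEG3. Among 27305 genes with a listed start the shares were 55.7% and 37.9%.

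The member windows held 228 sh-ctrl peaks (exact Poisson 95% interval 199 to 260) and 277 sh-VNGD peaks (245 to 312), a ratio of 1.21 against 1.42 for the whole lists. An overlap of at least 1 bp with the other library was found for 68.9% (62.6 to 74.5, Wilson 95% interval) of sh-ctrl peaks, beside 72.2% of all sh-ctrl peaks. For the sh-VNGD peaks the share was 56.7% (50.8 to 62.4), beside 51.1% of all. After merging, 157 regions had both libraries, 71 had sh-ctrl alone and 120 had sh-VNGD alone; in the whole series 16.5% of regions had sh-ctrl alone and 41.2% sh-VNGD alone. Regions of 1 library were low, with medians of 11 sh-ctrl and 14 sh-VNGD tags, against 22 and 23 in regions of both. The very long gene TRAPPC9 alone held 68 of the sh-ctrl and 80 of the sh-VNGD peaks.

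**Figure D1:**
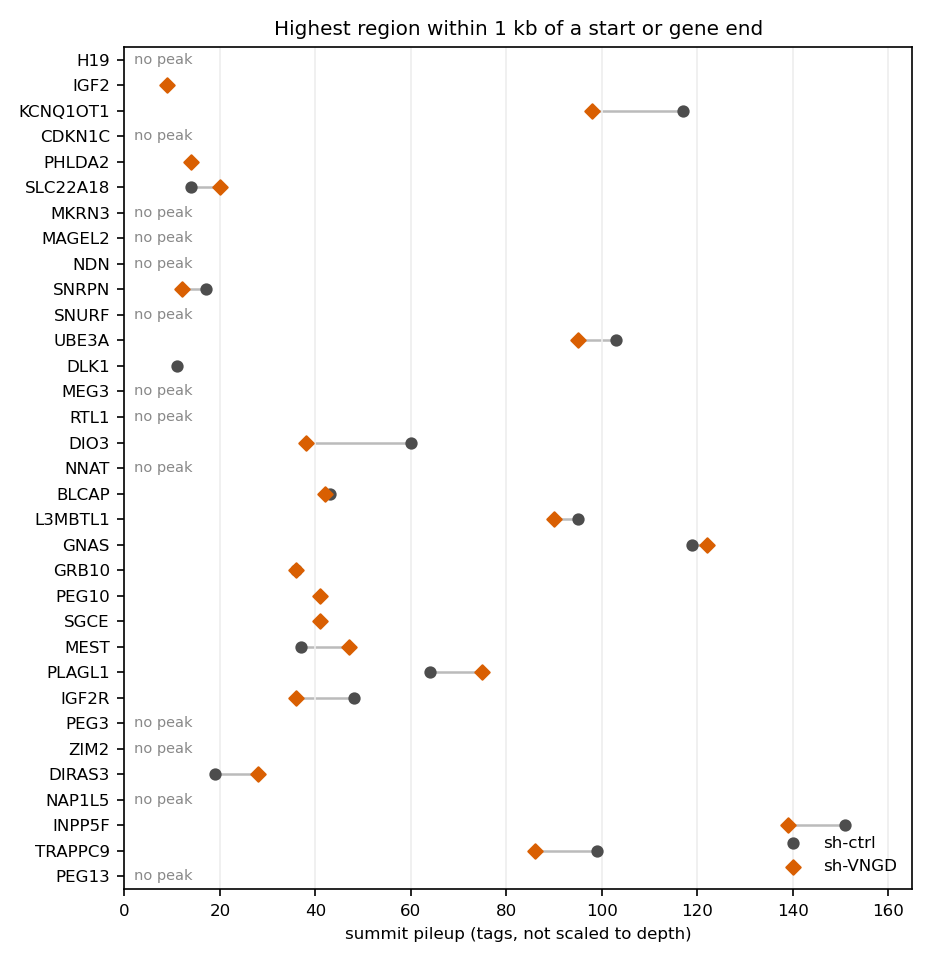
Summit pileup (tags, x axis) of the highest region within 1 kb of a start or outer gene end of each of the 33 genes, with sh-ctrl as grey circles and sh-VNGD as orange diamonds. Grey lines join the 2 libraries; heights run from 9 tags at IGF2 to 151 at INPP5F, and 13 genes have no peak in either library. At GRB10 both libraries stand at 36 tags and the symbols coincide, and PEG10 and SGCE share 1 region.

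The start values differed little between the libraries. A ratio could be formed for 15 of the 16 genes, since the highest region at SGCE had a peak in sh-VNGD alone. The median relative log2 ratio was -0.08, with a range from -0.66 to 0.56, and 9 lay below 0. Quartiles over all 19971 genes with a ratio were -0.18 and 0.23. DIO3 was the 1 member called lower and none was called higher, where 4.58% of all genes were called lower and 4.93% higher. Scaled to kept tags without setting the median to 0, 8 of the 15 intervals lay wholly below 0 and none wholly above, beside 44.4% and 0.511% of all genes.

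In the imprinted cluster of chromosome 11, the start peak of KCNQ1OT1, at its control region, was the highest of the 6 genes described here, and the other 5 had at most 20 tags at a start or gene end. KCNQ1OT1 is a long non-coding RNA whose transcription start lies in the control region of its domain. The region over that gene end, at chromosome 11, 2699855 to 2700478, had 117 sh-ctrl and 98 sh-VNGD tags, a ratio of -0.26 (-0.66 to 0.14) relative to all gene starts and of -0.45 (-0.85 to -0.05) relative to all regions. The first interval spans 0 and the second does not, and relative to regions of at least 30 tags the value was -0.33 (-0.73 to 0.07). Beside it, at 2699179 to 2699478, the order was the other way, with 24 sh-ctrl and 49 sh-VNGD tags. This smaller region was higher in sh-VNGD relative to all regions, at 0.84 (0.10 to 1.61). The growth-restraining genes of the domain had little signal. CDKN1C, an inhibitor of cyclin-dependent kinases, had no peak in either library within 5 kb. PHLDA2, a placental growth regulator, had a gene-end peak of 14 tags in sh-VNGD and none in sh-ctrl. SLC22A18, a transporter gene listed as SLC67A1 in the annotation, had 14 and 20 tags at its starts, with a relative ratio of 0.51 (-0.54 to 1.61). Inside SLC22A18, toward its PHLDA2 side, the region at 2924415 to 2924777 had 39 sh-ctrl and 20 sh-VNGD tags and was lower, at -1.16 (-2.01 to -0.34).

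H19, a non-coding RNA expressed from the maternal copy, and IGF2, a growth factor gene expressed from the paternal copy, share a control region upstream of H19 that binds CTCF. The H19 start had no peak in either library. Its single window peak, at 2004752 to 2004974 and 3486 bp upstream of the start, had 11 tags in sh-ctrl and was not called in sh-VNGD. Around IGF2 both libraries shared 1 region, at 2137204 to 2137549, with 24 sh-ctrl and 38 sh-VNGD tags, a relative ratio of 0.47 (-0.30 to 1.27). Single-library peaks at IGF2 stood at 9 and 20 tags for sh-VNGD and at 18 for sh-ctrl. The interval of the shared region spans 0, and peaks of 1 library have no ratio.

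In the Prader-Willi and Angelman domain of chromosome 15, only UBE3A had a high peak at its start among the 6 genes examined. UBE3A encodes a ubiquitin ligase that is imprinted in neurons and expressed from both copies in most other cells. The region over its upstream starts, at chromosome 15, 25438863 to 25439320, had 103 sh-ctrl and 95 sh-VNGD tags, with a relative ratio of -0.12 (-0.53 to 0.30). SNURF and SNRPN share a start in the domain's control region, printed above, and no peak lay within 1 kb of it. The nearest peaks were 1130 bp away with 10 tags in sh-ctrl and 1453 bp away with 14 tags in sh-VNGD. That sh-ctrl peak of 10 tags, at 24956117 to 24956376, lay over the last SNRPN start, where no sh-VNGD peak was called. The region from 24956493 to 24956821, 193 bp from that last start, had 17 and 12 tags, a ratio of -0.50 (-1.70 to 0.65). The intronless genes on the centromeric side were bare. MAGEL2 had no peak within 5 kb, NDN had 1 peak of 17 tags in each library at different places, and MKRN3 had 1 peak of 8 tags in sh-VNGD. Within SNRPN, 1 of 13 regions with both libraries was lower, at 24919259 to 24919948, with 20 sh-ctrl and 9 sh-VNGD tags. Over all regions with both libraries the share called lower was 7.41%.

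In the DLK1 to DIO3 domain of chromosome 14, the starts of the maternally expressed RNA gene MEG3 and of RTL1, a retrotransposon-derived gene, had no peak. The nearest peak to a MEG3 start had 18 tags, 2345 bp away, in sh-VNGD, while in sh-ctrl none lay closer than 15683 bp. A strong inner MEG3 region, at chromosome 14, 100851057 to 100851589, had 84 sh-ctrl and 81 sh-VNGD tags, a relative ratio of -0.25 (-0.70 to 0.21). DLK1, which encodes a Notch-related ligand, had low sh-ctrl peaks of 11 and 9 tags and none in sh-VNGD. DIO3, an enzyme that inactivates thyroid hormone, had 60 sh-ctrl and 38 sh-VNGD tags over its start, at 101561140 to 101561549. That start was lower in sh-VNGD, at -0.66 (-1.28 to -0.05) relative to all gene starts and -0.85 (-1.48 to -0.24) relative to all regions. The authors' fold enrichment over local background was 12.7 for sh-ctrl and 7.80 for sh-VNGD. At RTL1, a region 2532 bp inside the gene had 37 and 21 tags and was lower as well, at -1.01 (-1.86 to -0.20), while its neighbour at 100902272 to 100902642 had 21 and 27 tags, with an interval spanning 0.

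GNAS, which encodes the stimulatory G protein alpha subunit and alternative products from upstream starts, held 18 regions, 14 of them with both libraries. Its most upstream start, that of the secretory protein transcript, had 119 sh-ctrl and 122 sh-VNGD tags at chromosome 20, 58839454 to 58840305, a ratio of 0.04 (-0.34 to 0.41). The highest region of the gene, at 58855698 to 58856610 and 2717 bp from the nearest listed GNAS start, had 176 and 154 tags. It was called lower relative to all regions, at -0.39 (-0.71 to -0.07), but at -0.26 (-0.59 to 0.06) relative to regions of at least 30 tags, and stood at -0.05 by fold enrichment over local background. Near the most downstream listed starts, at 58888413 and 58889180, sh-ctrl had a peak of 44 tags at 58889092 to 58889306. No sh-VNGD peak was called there. The sh-ctrl peak had a fold enrichment of only 3.66, over a local background of 11.3 tags. The adjoining region at 58890482 to 58891853 had 67 and 70 tags. Downstream of it, the region at 58892494 to 58892789 had 36 and 63 tags, with a ratio of 0.61 (lower bound 0.0016), and that at 58907734 to 58908149 had 100 and 72 tags, with -0.67 (-1.12 to -0.22). Local background around these downstream starts was high, at 11.1 sh-ctrl and 13.1 sh-VNGD tags around the region of 36 and 63 tags.

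**Figure D2:**
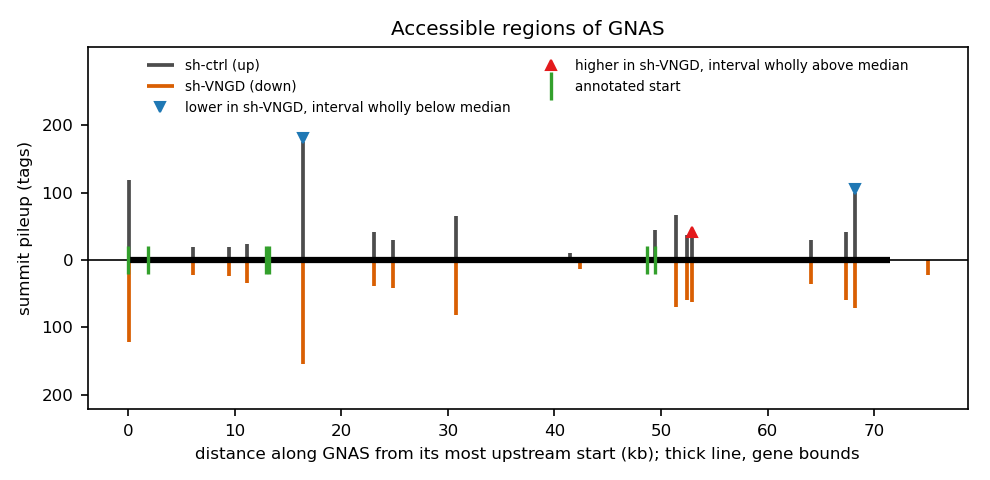
Summit pileup (tags) of each accessible region of GNAS against distance (kb) from its most upstream start, with sh-ctrl drawn upwards and sh-VNGD downwards. Green ticks are annotated starts, the thick line spans the gene bounds, and triangles mark the 2 regions called lower and the 1 called higher in sh-VNGD. The libraries mirror each other at most regions, and the peak of 44 tags near the downstream starts has no sh-VNGD counterpart.

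The other genes of chromosome 20 showed similar heights in both libraries. L3MBTL1, a chromatin-compacting Polycomb-related protein, had 95 and 90 tags over its inner start, at 43513716 to 43514607, and a ratio of -0.08 (-0.51 to 0.35). At its outer start only sh-VNGD had a peak, of 13 tags. BLCAP, the gene that contains NNAT in an intron, had 43 and 42 tags at its upstream starts, a ratio of -0.03 (-0.68 to 0.61). NNAT, a paternally expressed gene of neurons, had no peak within 1 kb of either end. The closest region with both libraries, at 37519520 to 37519936, had 54 tags in each. Besides, 2 peaks called in sh-VNGD alone stood at 23 and 32 tags.

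GRB10, an adaptor that dampens insulin and growth factor signalling, held 6 of the 20 imprinted regions called lower, all more than 1 kb from its starts. The control-region start, at chromosome 7, 50782347 to 50783029, had 36 tags in each library. Its ratio was 0.00 (-0.71 to 0.71) relative to all gene starts and -0.19 (-0.90 to 0.52) relative to all regions. The most upstream start had 20 and 21 tags. Inside the gene, the region at 50771177 to 50771759 had 75 sh-ctrl and 35 sh-VNGD tags, and was lower, at -1.29 (-1.91 to -0.70). Likewise, 50632515 to 50633292 had 77 and 36 tags, with a ratio of -1.29 (-1.90 to -0.70). The region at 50714777 to 50715488 had 56 and 19 tags, or 3.37 times lower relative to all regions (log2 ratio -1.75, from -2.59 to -0.98). At 50685458 to 50686053 the pileups were 39 and 13, 3.43 times lower, at -1.78 (-2.81 to -0.84).

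The GRB10 regions toward and beyond the other gene end were lower too. That at 50599263 to 50599787 had 38 and 21 tags, and that at 50584884 to 50585556 had 65 and 42. In all, 6 of the 18 GRB10 regions with both libraries were called lower and none higher, and 5 of the 6 were at least 2-fold lower. Over all 152097 regions with both libraries 7.41% were lower and 2.82% higher, and 2.79% were lower by at least 2-fold. High regions are called more often, so the comparison was repeated for regions whose pileup reached 30 in at least 1 library. There, 6 of 13 GRB10 regions were lower, against 17.0% of 61389 regions, or 5.72% for at least 2-fold. No other gene described here had as many lower regions, so this contrast is not an independent test of GRB10.

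Between the lower GRB10 regions lay others that were not called, with ratios of either sign. The region at 50721194 to 50721642 had 62 sh-ctrl and 80 sh-VNGD tags, at 50733541 to 50733973 the pileups were 39 and 38, and at 50595543 to 50595842 they were 29 and 42. In the direction of the called regions, 50706370 to 50706935 had 22 and 15 tags, at -0.75, and 50679199 to 50679587 had 39 and 33, at -0.43. The intervals of these 5 regions span 0, which does not show that they were equal. The local background of the 6 lower regions was 2.26 to 4.08 tags in sh-ctrl and 1.92 to 2.88 in sh-VNGD, where 1.92 is the lowest value that occurs in the sh-VNGD list. By fold enrichment over that background the 6 differences were smaller. Relative to all regions, fold enrichment gave -0.60 and -0.51 for the regions of 77 and 75 tags and -0.02 for that of 65 tags. The part of background in these differences was not tested.

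**Figure D3:**
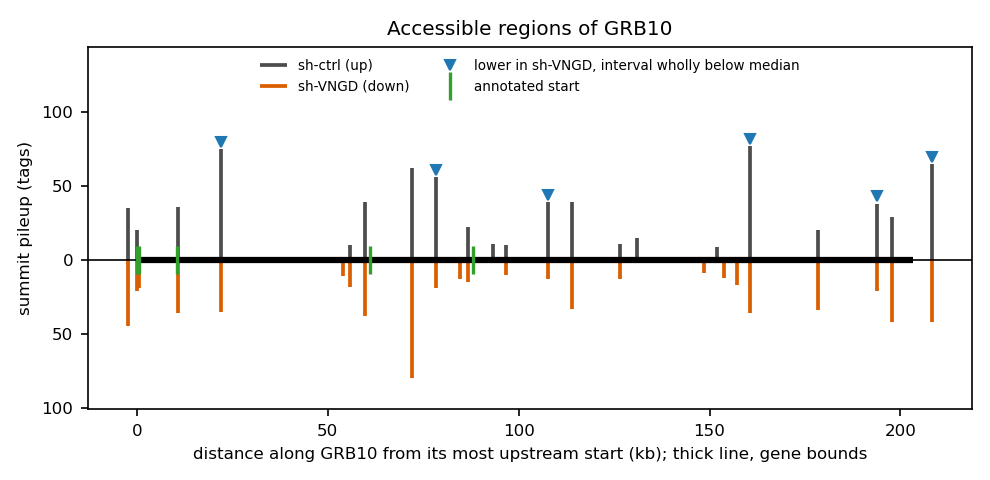
Summit pileup (tags) of each accessible region of GRB10 against distance (kb) from its most upstream start, with sh-ctrl upwards and sh-VNGD downwards. Green ticks are annotated starts, the thick line spans the gene bounds, and blue triangles mark the 6 regions called lower in sh-VNGD. The starts with 36 tags and with 20 and 21 tags have like bars in both libraries, and the marked bars are interspersed among unmarked ones along the gene.

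At the other imprinted genes of chromosome 7, pileups near the starts were of like height in both libraries, apart from 1 peak called in sh-VNGD alone. PEG10, a retrotransposon-derived gene needed for placental growth, is transcribed away from SGCE, a sarcoglycan gene, from a shared control region. The region at 94657633 to 94658737, 1308 bp inside PEG10, had 197 sh-ctrl and 188 sh-VNGD tags, the highest sh-ctrl and sh-VNGD values of any imprinted gene here, and its relative ratio was -0.26 (-0.56 to 0.04). Between the 2 gene ends sh-VNGD had a peak of 41 tags with a fold enrichment of only 2.89 and sh-ctrl had none called. Within SGCE, the regions at 94620716 to 94621161, with 50 and 36 tags, and at 94643859 to 94644616, with 29 and 14, were lower, and the first lost its call relative to regions of at least 30 tags, at -0.55 (-1.21 to 0.10). MEST, a paternally expressed hydrolase-like gene, had 37 and 47 tags over its outer starts. The ratio of MEST there was 0.35 (-0.31 to 1.01) relative to all gene starts and 0.15 (-0.50 to 0.81) relative to all regions. Its inner starts, which lie in the control region, had no peak nearer than 4177 bp (sh-ctrl) and 4193 bp (sh-VNGD).

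On chromosome 6, PLAGL1, a zinc finger regulator of cell cycle arrest linked to transient neonatal diabetes, had peaks in both libraries at its control-region start and at its outer start. The control-region start, printed above, had 26 sh-ctrl and 31 sh-VNGD tags, at 144008110 to 144008460. The outer start had 64 and 75 tags, a ratio of 0.23 (-0.27 to 0.73). None of the 10 PLAGL1 regions with both libraries was called, beside 7.41% lower and 2.82% higher over all regions. IGF2R, the receptor that clears IGF2, had 48 and 36 tags at its start, a ratio of -0.42 (-1.08 to 0.24). Beside it a peak of 36 tags at 159969972 to 159970228 was called in sh-VNGD alone.

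PEG3, a zinc finger gene, and ZIM2 share their upstream end on chromosome 19, where their control region lies, and no peak lay within 1 kb of it. The nearest region, at 56836904 to 56837295, had 19 sh-ctrl and 20 sh-VNGD tags. DIRAS3, a Ras-related growth suppressor, had 19 and 28 tags in a region 102 bp from its start, a ratio of 0.56 (-0.33 to 1.48). Only 1 bp from that start, at 68050628 to 68050844, a peak of 11 tags was called in sh-ctrl alone. NAP1L5, a nucleosome assembly gene located within an intron of another gene, had no peak within 5 kb. INPP5F, a phosphoinositide phosphatase, had 151 and 139 tags at its main start, a ratio of -0.12 (-0.46 to 0.22). Its inner start, the imprinted one, had no peak within 1 kb.

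TRAPPC9, a trafficking complex subunit, contains the non-coding RNA gene PEG13, whose promoter region is a control region. Beside the upstream end of TRAPPC9, the region at chromosome 8, 140459514 to 140460008, had 99 sh-ctrl and 86 sh-VNGD tags, a ratio of -0.20 (-0.64 to 0.23) relative to all gene starts. A region just inside that end, at 140457278 to 140458357 and 222 bp from it, had 77 and 52 tags and was lower relative to all regions, at -0.76 (-1.30 to -0.23). The 2 PEG13 regions, at 140096792 to 140097301 and 140099130 to 140099440, had 123 and 90 tags and 52 and 39 tags. The first was lower, at -0.64 (-1.05 to -0.24), or -0.16 by fold enrichment, and the second had an interval reaching 0.02. Elsewhere in TRAPPC9 the lowest ratio of any imprinted region occurred at 140321574 to 140322481, with 57 sh-ctrl and 15 sh-VNGD tags, 4.34 times lower at -2.12 (-3.05 to -1.28). By fold enrichment that value was -1.20. In the opposite direction, 140449187 to 140449487 had 26 and 56 tags and was higher, at 0.91 (0.22 to 1.64). Of the 40 TRAPPC9 regions with both libraries, 5 were lower, the PEG13 region included, and 1 higher. Over all regions with both libraries the shares were 7.41% and 2.82%. Relative to the median of regions of at least 30 tags, 2 of the 5 lower TRAPPC9 regions lost their call. Of these 2, that at 139822002 to 139822296, with 27 and 16 tags, was itself below that height.

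**Figure D4:**
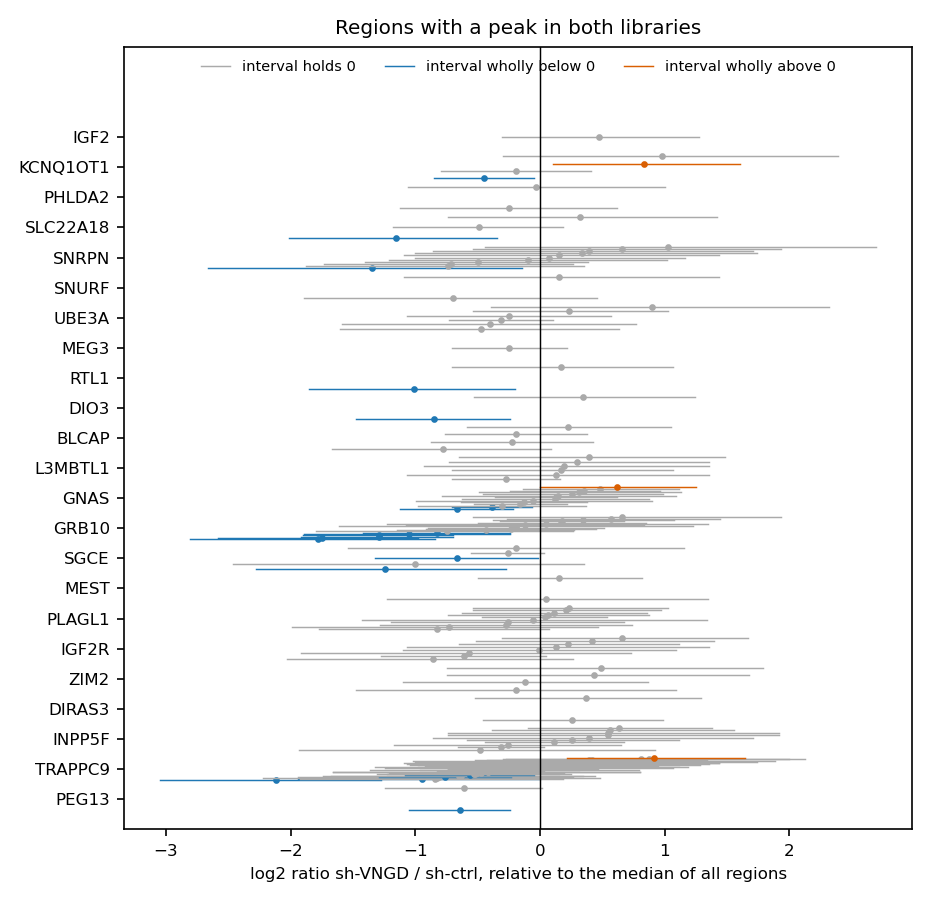
Relative log2 ratio (x axis, sh-VNGD over sh-ctrl, 0 is the median of all regions) of the 157 regions with a peak in both libraries, with 95% counting intervals as lines, grouped by gene. A region in several windows is drawn once; blue marks the 20 regions called lower and orange the 3 called higher. GRB10 has 6 of the blue regions, and the farthest left belongs to TRAPPC9.

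Over all 157 regions the median relative ratio was -0.09, 20 regions (12.7%) were lower and 3 (1.91%) higher, beside 7.41% and 2.82% of all regions. Without setting the median to 0, 37 intervals lay wholly below 0 and none wholly above, beside 16.5% and 0.839%. Of the 20, 17 lay more than 1 kb from the listed starts, or stand-in ends, of the imprinted genes whose windows hold them. Distances to starts of other genes were not measured. Without GRB10, 14 of 139 were lower, or 10.1%. At a pileup of at least 30, 17 of 73 were lower and 3 higher, beside 17.0% and 5.82% of all regions of that height, and without GRB10 11 of 60, or 18.3%, were lower. Set against the median of regions of that height, 13 of 73 were lower and 4 higher, beside 11.5% and 9.14%. Outside GRB10 the share of lower regions was thus close to that of all regions of like height. Since GRB10 had the most lower regions of any gene here, leaving it out had to reduce the share.

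CpG-rich starts had peaks more often than CpG-poor starts, among imprinted genes as among all genes. RefSeq promoter windows, of 300 bases, were listed for 21 of the 33 genes and gave 49 distinct starts. Of the 24 with at least 20 CpGs, 15 (62.5%) were overlapped by a peak in both libraries, beside 78.3% of 14336 such windows of all genes. Of the 25 with fewer, 2 (8%) were, beside 20.8%. CpG-rich windows without a peak in either library included those of NDN with 35 CpGs, of an inner GNAS start with 34 and of the inner MEST starts with 22 and 25. The L3MBTL1 inner start had a peak in both libraries with 9 CpGs. Many of the 49 windows overlap each other, so they are not independent.

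**Figure D5:**
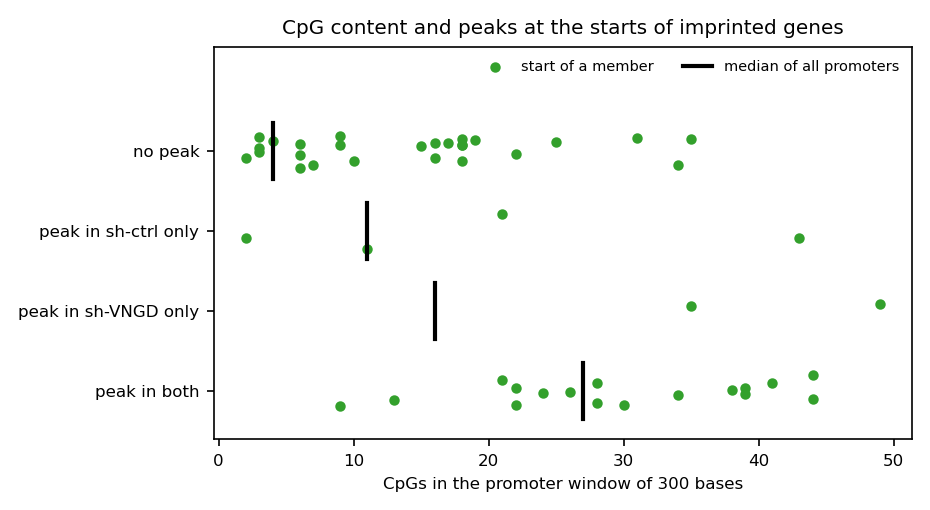
CpGs per promoter window (x axis) of the 49 starts of imprinted genes, split by whether a peak of both libraries, of 1 library or of neither overlaps the window. Green points are single starts, spread vertically at random, and black bars are the medians of all promoters, 27 for a peak in both libraries and 4 for none. Points without a peak reach 35 CpGs.

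Motif letters were counted on both strands of the same windows. The ZFP57 letters TGCCGC occurred in 20 of the 49 windows, beside 16.7% of 34942 windows of all genes. With overlapping windows joined, 15 of 41 held them, beside 16.6%. At 20 or more CpGs the counts were 12 of 24, beside 30.5%. The YY1 letters GCCATNTT, which share no more than a few end bases with the ZFP57 letters, occurred in 6 of 49, beside 6.57%. A match describes these letters in the reference sequence only.

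Other genes reported as imprinted in at least some tissues gave no called start. Of 47 names, 46 were matched, to 45 genes, and 22 of these had a ratio, with a median of 0.11, and none had an interval wholly below or above the median, beside 4.58% and 4.93% of all genes. The lowest were SVOPL, with 56 sh-ctrl and 41 sh-VNGD tags, FAM50B, with 66 and 49, and TSSC4, with 136 and 112, at -0.45, -0.43 and -0.28. At the other end, where 1 library or both reached 30 tags, were KCNQ1, ZNF264 and ERLIN2, at 0.39, 0.38 and 0.35. KCNQ1, the potassium channel gene that contains KCNQ1OT1, had 35 and 46 tags. NAP1L4, below that height with 9 and 17 tags, stood higher, at 0.92 (-0.33 to 2.27). AIRN and SNHG14, antisense RNAs of the IGF2R and UBE3A domains, had no start peak in either library.

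Genes that set or keep imprints also had no called start. Of 28 genes, 21 had a ratio, with a median of -0.07, and again none was called, beside 4.58% and 4.93%. DNMT1, which copies methylation at replication, had 88 and 83 tags, TRIM28 143 and 127, and CTCF 186 and 168. Extremes are given for starts that reached 30 tags in at least 1 library. The lowest were EED, a Polycomb subunit, at -0.42 (-0.89 to 0.05), TET3 at -0.30 and HELLS at -0.29. The highest were SUZ12 at 0.55 (-0.21 to 1.33), SMCHD1 at 0.32 and KDM1A at 0.29. Below that height, ZFP57 stood higher, at 1.00 (-0.16 to 2.26), with 10 sh-ctrl and 20 sh-VNGD tags. So did NLRP2, at 0.81 (-0.13 to 1.79), with 16 and 28 tags. DNMT3B and CTCFL had a start peak in sh-VNGD only, of 22 and 18 tags, and ZNF445 had none in either library.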

How the data were processed

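Peak lists of 1 sh-ctrl and 1 sh-VNGD library were analysed. Peaks were called on each library separately with MACS 2.1.0.20150731, without a control library, keeping 1 tag per position, at a q cutoff of 0.05, per the file headers. Alignment is not described in the headers; Bowtie2 2.2.5, deepTools and another MACS2 version, 2.1.2, appear in the submitters' processing notes, beside builds hg38 and GRCh38.p13. The deposited pileup is a signal in whole tags, not scaled to depth. The fold enrichment is the authors' ratio of pileup to local background, and the −log10 p and q values are the authors', as deposited. Local background was derived here from pileup and fold enrichment.

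Peaks of the autosomes, X and Y were merged across libraries. Gene bounds and starts came from RefSeq tables of GRCh38.p14; 32 of 33 members matched by symbol and 1 by synonym. Starts were listed for 21 members; for IGF2, KCNQ1OT1, CDKN1C, PHLDA2, PEG3, ZIM2, PEG10, SGCE, DLK1, NNAT, TRAPPC9 and PEG13 both outer gene ends were used. The region with the highest scaled pileup was kept. Interval coverage was checked on simulated counts. No p-values were computed. Members and lists were chosen with earlier results of these data known. All members are described, with the leading regions of each locus; from the other lists, the 3 lowest and 3 highest start ratios at a pileup of at least 30; other genes of those lists are named after their values were seen. Alternatives covered windows, thresholds, overlap, centring and measure. Python 3.11.15, numpy 2.4.6, scipy 1.17.1 and pandas 2.3.3 were used.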

Additional observations from a re-analysis of the deposited data

How the results depend on the processing

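Of the summary values recomputed, 50 were counted as unchanged and 20 as moved, and no called region or start changed direction. Values counted as unchanged could still shift. With equal numbers of peaks, sh-VNGD member peaks fell from 277 to 205, below the 228 of sh-ctrl. Without centring, the region median was -0.35 against -0.09. Window counts of members with a peak in sh-ctrl only, sh-VNGD only and neither were 1, 0 and 6 with windows of 2 kb and 1, 0 and 0 with 10 kb. The sh-VNGD-only count was 0 at a −log10 q of at least 5 and with equal numbers of peaks. With equal numbers, shared peaks were 61.0% of sh-ctrl and 67.8% of sh-VNGD. Scaled to kept tags without centring, the start median was -0.53 with 8 intervals wholly below 0, and of the region intervals 37 lay wholly below and 0 wholly above. Start intervals below numbered 2 within 500 bp and 2 within 2000 bp, and 1 lay above when each library's own highest peak was used, where region intervals gave 3 below and 0 above. At a pileup of at least 30, centred on those regions, 13 intervals lay below. By this centring, added after seeing the data, 5 called regions lost their call: those at KCNQ1OT1 (-0.33), GNAS (-0.26), SGCE (-0.55) and, in TRAPPC9, -0.83 and -0.44. All 6 in GRB10 kept theirs. The TRAPPC9 region at -0.83, with 27 and 16 tags, was itself below a pileup of 30. No paired analysis was possible because each group has 1 library. Depth limits low regions: at the SLC22A18 start, with 14 and 20 tags, the interval ran from -0.54 to 1.61.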
